A study of Drosophila melanogaster with 24 samples.

Results

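Of the 22575 spots on the array, 134 were highest in the antenna of Drosophila melanogaster by a rule applied to all 24 samples of the study, 0.594% of the array. A spot was taken where its 8 antenna values all lay above its 16 values in the first legs and proboscis. Its antenna mean also had to exceed the next tissue mean by at least 0.7 on the log2 scale, a difference called the gap here, and the gap had to be larger than the difference between the means of the other tissues. The spots were thus selected on their measured levels in all 24 samples, so levels and tissue differences are described below without a test. The same rule turned to the other tissues gave 113 spots for the first legs and 44 for the proboscis.

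The antenna samples (the outer antennal segment with its arista), first legs (from the distal tibia outward) and proboscises came from adults dissected 1 to 2 hours after eclosion, when the fly leaves its pupal case, and the mRNA fraction of their total RNA was amplified before labelling. Each tissue was sampled 4 times in males and 4 times in females. The series text names the isogenic line WI89, while the descriptions mark 12 samples as RIL 58 and 12 as RIL 89. No treatment or mutation is given for any group, and nothing in the labels says that replicates came from separate cultures. The p-values below therefore describe the spread among these samples alone, and that spread may be technical.

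Flies smell mainly with the antenna. Hair-like sensilla on its outer segment house olfactory receptor neurons, whose odorant receptors work with a shared co-receptor, Orco, or belong to the ionotropic receptor family. Support cells around these neurons secrete odorant-binding proteins into the sensillum lymph and are known for very abundant transcripts, and the arista carries neurons that sense temperature and moves with air to drive the hearing organ. First legs and proboscis carry taste bristles, and both contain muscle. No file gives a gene for any spot. No spot can therefore be assigned to any of these families, the antennal identity of the samples could not be checked on marker genes, and spots are given by number and grid place. In whole-tissue RNA, fewer cells of a type and less RNA per cell cannot be told apart.

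Each sample was 1 dye channel, 12 in Cy3 and 12 in Cy5, on 12 arrays inferred from pairs of samples with identical quality marks. The arrays fell into a set of 8, whose channels correlated at 0.547 to 0.709 across spots, and a set of 4, at 0.835 to 0.961. Median signal above background was 102 to 148 in the Cy3 samples and 16.1 to 62.9 in the Cy5 samples. The number of arrays limits the precision.

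The 134 spots spanned a wide range of size and level. Their gap ran from 0.70 to 5.62 on the log2 scale, with a median of 1.32. It was at least 1 at 90 spots, at least 2 at 25 and at least 4 at 6. Antenna means ran from 7.57 to 13.64, with a median of 8.65, where the median of all normalised log2 values was 6.86. Of the 134, 37 were among the brightest 1% of the array by antenna mean and 109 among the brightest 5%. They lay on all parts of the grid, with 22 to 29 in each of 5 equal bands of its 105 rows, and 5 carried a quality mark on at least 1 array. The marked spots were 7712, 11165, 14516, 20442 and 20635.

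**Figure D1:**
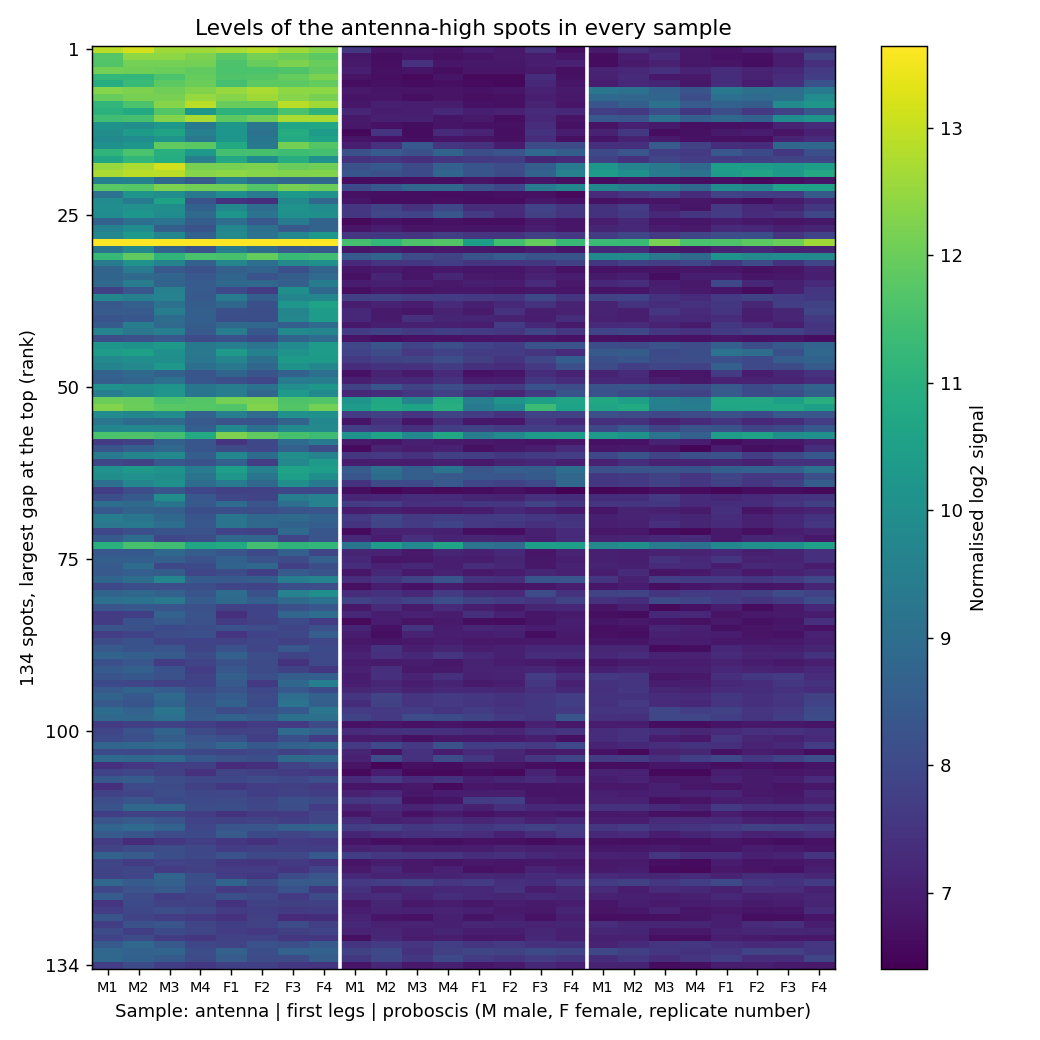
Normalised log2 signal (colour) of the 134 antenna-high spots (rows, largest gap at the top) in each of the 24 samples (columns, males then females within a tissue, white lines between tissues). The 6 spots with a gap of at least 4 form the bright block at the top left, and the row at 13.64 in all 8 antenna samples is spot 14516.

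Spot 13930 (row 65, column 170) had the widest gap. Its levels were 12.90, 13.16, 12.61 and 12.61 in male antennae and 12.74, 12.90, 12.61 and 12.34 in female antennae, against 6.68 to 7.57 in first legs and 6.79 to 7.47 in proboscises. All 8 antenna values stood at least 4.77 above the highest value elsewhere. Its gap of 5.62 ranged from 4.56 to 6.10 under other background offsets and normalisations, and it remained the spot with the widest gap in each of them.

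Spot 3445 (row 17, column 5) followed with a gap of 5.08. Male antennae averaged 12.20 ± 0.33 and female antennae 11.94 ± 0.16, against 6.77 ± 0.09 and 6.87 ± 0.06 in male and female first legs and 6.94 ± 0.27 and 7.05 ± 0.51 in male and female proboscises (SD, n = 4 each). One proboscis sample, female replicate 4, reached 7.80, still 3.92 below the lowest antenna value. In their first legs and proboscis means, though not in every sample, both leading spots were therefore near the median of the array.

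The brightest of the 134 was spot 14516 (row 68, column 111). It was the brightest spot of the whole array in each antenna sample, so quantile normalisation gave it the same level, 13.64, in all 8, and its spread there is not measured. Its signal above background was 9179 to 49546 before normalisation. It was also high in first legs, at 11.52 ± 0.22 in males and 11.28 ± 0.61 in females, and in proboscises, at 11.59 ± 0.40 in males and 12.02 ± 0.42 in females (SD, n = 4 each). The gap of 1.84 is set by the level that the normalisation gives to the top spot. A spot that is bright in all tissues can thus meet the rule.

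At the dim end, spots 13077 (row 61, column 177) and 7268 (row 34, column 173) had antenna means of 7.63 and 7.57. Spot 7268 averaged 7.57 ± 0.18 in antennae of males and 7.56 ± 0.09 in those of females, against 6.72 to 6.75 in the 4 other group means (SD, n = 4 each). Its signal above background was 46.3 to 187.9 in Cy5 antenna samples and 176 to 255 in Cy3 antenna samples. Near this end the size of a gap depends on the offset of 50 added to the signal. Over the 134 spots, the median gap was 1.51 with an offset of 16 and 0.84 with an offset of 200.

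**Figure D2:**
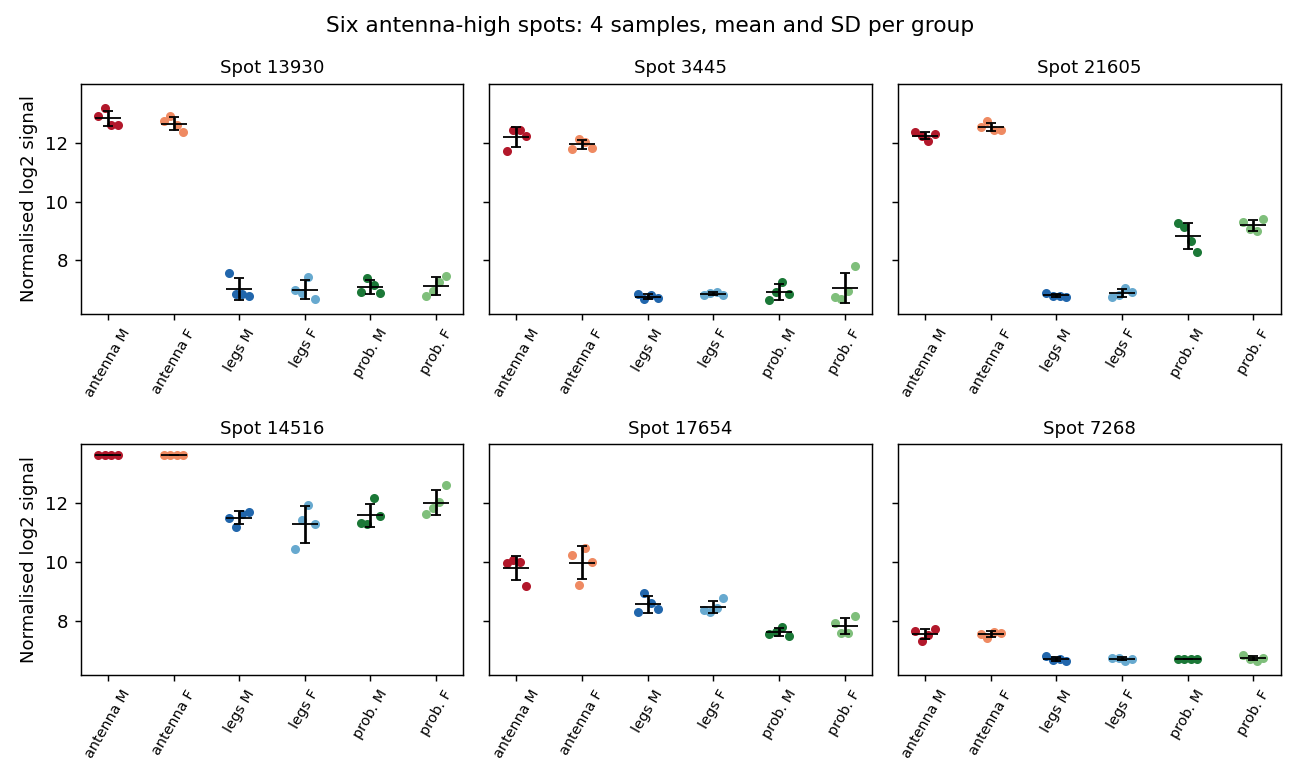
Normalised log2 signal of 6 antenna-high spots, with 1 point per sample and the mean and SD of the 4 samples in each group of tissue and sex (M male, F female, prob. proboscis). In their means outside the antenna, spots 13930 and 3445 are near the array median of 6.86. Spot 21605 is intermediate in the proboscis and spot 17654 in the first legs. Spot 14516 is bright in all tissues, and spot 7268 is near the dim end.

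The spots differed in their level outside the antenna. At 75 of 134 the means of both first legs and proboscis lay within 0.5 of the array median, a width chosen after the values were seen, and at these the gap had a median of 1.11. At 43 spots both tissues lay above that band, with a median gap of 1.44. The proboscis alone was above it at 10 spots, with a median gap of 2.64, and the first legs alone at 6, with a median gap of 1.09. Antenna means had a median of 8.20 where both other tissues were near the array median and 9.60 where both were above.

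The larger differences between first legs and proboscis were mostly to the proboscis side. The first legs mean was above the proboscis mean at 59 spots and below it at 75, but by 0.7 or more at 1 and 11 spots. The rule bounds this difference by the gap, so it is given as a description. Some of the 11 are partners in the pairs described below, and how many of all spots differed by as much was not counted.

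Spots 21605 (row 101, column 105) and 4535 (row 22, column 20) stood furthest to the proboscis side. Spot 21605 had levels of 12.34, 12.22, 12.07 and 12.28 in male and 12.53, 12.74, 12.43 and 12.43 in female antennae. Its means were 6.85 in first legs and 9.01 in proboscises, a first legs minus proboscis difference of -2.16. The first legs were thus near the array median, and the proboscis lay between them and the antenna without overlap with either. Spot 17654 (row 83, column 24) stood furthest to the first legs side, at 9.90 in antennae against 8.53 in first legs and 7.73 in proboscises, with spot 7802 (row 37, column 62) next at a difference of 0.49.

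**Figure D3:**
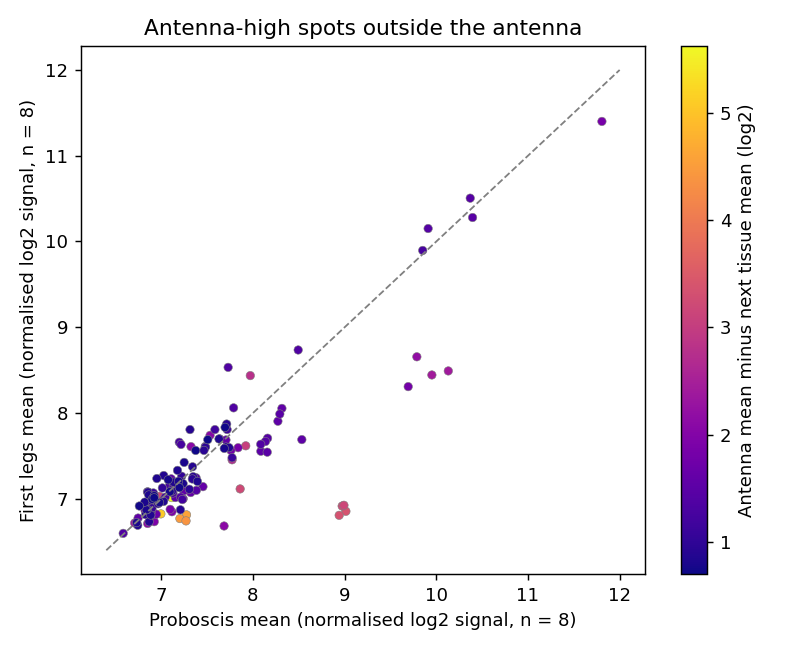
Mean normalised log2 signal of the 134 antenna-high spots in first legs against proboscises (n = 8 samples each), coloured by the gap between the antenna and the next tissue, with the line of equal levels. Most spots lie near 7 in both tissues, 11 lie 0.7 or more to the proboscis side and 1 to the first legs side.

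Many of the 134 spots came in pairs. Outside the 134, 1154 spots had a mean level above 8, and 280 pairs of these were each other's nearest in values over the 24 samples. Of the 280 pairs, 149 lay between 16893 and 17078 spots apart, and all 149 ran in the same order, from spots 85 to 5646 in the first run and from 17163 to 22539 in the second. The distance between the partners changed by at most 34 from one pair to the next. Neither files nor labels say whether a probe was printed more than once, and the runs were seen only after the values were examined.

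For a spot inside either run, the flanking pairs bound where a partner would lie, with a median of 56 candidate spots. Of the 134 antenna-high spots, 67 lay inside the runs. The candidate closest in values, called the counterpart here, was itself one of the 134 for 52 of the 67, which form 26 mutual pairs. Counting each of these pairs once leaves 108 spots, and the 67 spots outside the runs were not searched for partners.

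Partners were chosen for closeness in values within a bounded stretch, and both met the rule, so likeness in gap and place follows from that choice and is given as a description. The gaps of the partners differed by a median of 0.06 and by at most 0.30. Spot 3445 was paired with spot 20442, whose gap was 5.03 beside 5.08, and spots 4535 and 21605, at 3.35 and 3.36, were partners. The spots are therefore not independent of each other, and counts over the 134 count such pairs as 2.

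The remaining 15 spots inside the runs had counterparts that missed the rule. Gaps of these counterparts ran from 0.47 to 1.37, with a median of 0.72, beside a median of 0.86 at the 15 spots. At 8 of the 15 the counterpart had a gap of at least 0.7 but an overlap between antenna and other samples, and at 3 it had no overlap but a gap below 0.7. All 15 counterparts had their highest mean in the antenna.

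**Figure D4:**
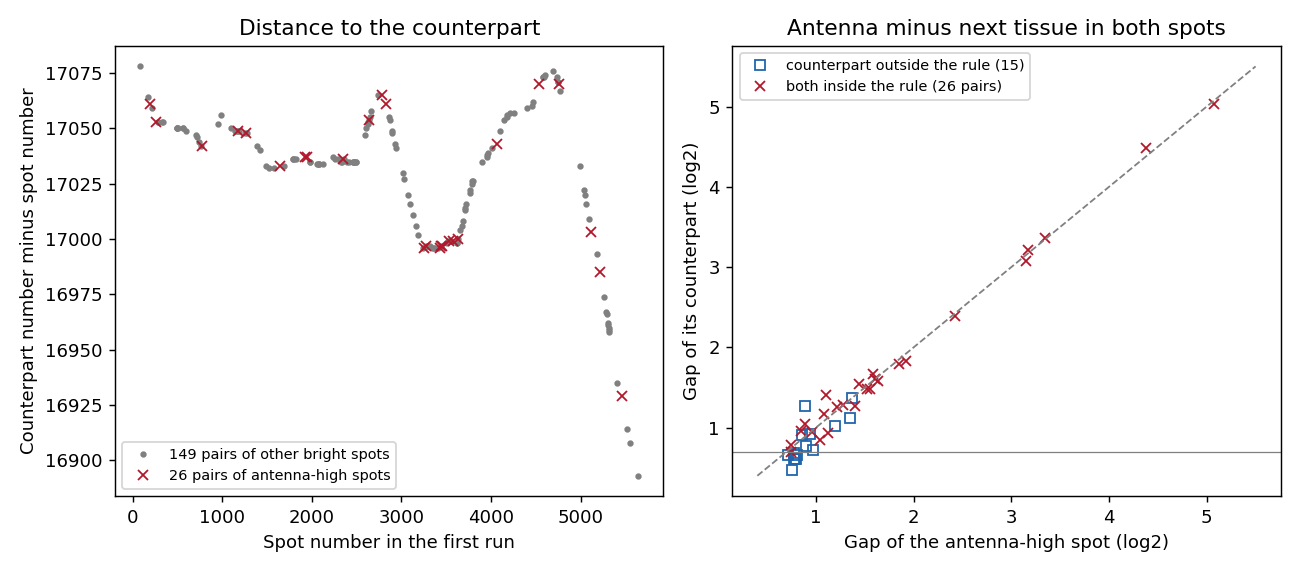
Left, the distance in spot number between a spot of the first run and its counterpart, for 149 pairs of other bright spots (grey) and 26 pairs of antenna-high spots (red). Right, the gap between antenna and next tissue at each antenna-high spot and at its counterpart, for the 26 pairs and for the 15 spots whose counterpart missed the rule (blue), with lines of equality and of a gap of 0.7. Counterparts were searched only between neighbouring grey pairs and taken as the closest in values, so the place of the red crosses is set by that search.

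At the border of the rule, neighbouring values lay on both sides. The spot nearest inside the limit on the gap, 18231 (row 85, column 171), had a gap of 0.702, and the nearest outside, 17172 (row 80, column 187), had 0.690. In all, 254 spots had no overlap, 135 of them with a gap of at least 0.7, and 90 spots had such a gap but overlapped. Spot 199 (row 1, column 199) cleared the highest other value by 0.002, while spot 21230 (row 99, column 160), with a gap of 1.54, missed by -0.01. The condition on the other tissues removed only spot 12188 (row 57, column 148), at 13.04 in antennae, 6.95 in first legs and 10.04 in proboscises.

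Some antenna samples read lower than others at these spots. Antenna male replicate 4 and female replicate 2 were the lowest of the 8 at 31 and 46 of the 134 spots, with median deviations of -0.26 and -0.24 from the antenna mean. Both are the Cy3 samples of the array set of 8, and the median deviations of the other 6 ran from -0.04 to 0.17. Among the 16 other samples, proboscis female replicate 4 held the highest value at 36 spots. Without the 2 low antenna samples the rule took 211 spots, among them all 134, an alternative added after the values were seen.

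A positive gap within any division of the samples follows from the rule, and only its size is described here. Its median was 1.27 in males and 1.27 in females, 1.32 in Cy5 and 1.23 in Cy3, and 1.22 in RIL 89 and 1.32 in RIL 58, each from 4 samples per tissue. In the array set of 8 it was 1.17 and in the set of 4, which held 1 first legs sample, 1.40. In the Cy3 channels of the set of 8 it was 0.99 and in its Cy5 channels 1.21. The lowest gap at any of the 134 spots in any of these divisions was 0.35, in the 4 Cy5 samples of the set of 4 arrays. Taken spot by spot, the male minus female difference in gap had a median of 0.11. The male gap was the larger at 88 of the 134, without a test or an adjustment for dye and array set.

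The rule did not compare the sexes, and sex differences were tested with limma on the whole array. It did require the antennae of both sexes to exceed all other samples. A spot high in the antennae of 1 sex alone was thus left out beforehand, and the counts below do not cover such spots. The model held array, array set, dye, dye by set and RIL number. Fitted differences are adjusted for these terms and use another background correction than the levels, so they need not equal the difference of the levels. Fitted values are male minus female on the log2 scale, and a call has a Benjamini-Hochberg adjusted p under 0.05 over all 22575 spots. In the antenna, limma called 0 of the 134 spots, where 0.146% of all spots were called, and 23 had an unadjusted p under 0.05, 17.2% beside 8.71% of all spots. Of the 23, 12 were higher in males, 8.96% of the 134 beside 4.52% of all spots at the same unadjusted threshold, and 11 lower, 8.21% beside 4.19%. After adjustment, 0.128% of all spots were called higher and 0.0177% lower. The fitted differences ran from -0.80 to 1.01, with a median of 0.0043 at the 134 spots and -0.0005 at all spots. Female antennae lay mostly in the array set of 4 and male antennae all in the set of 8. Male antennae were also mostly in Cy5 and female antennae mostly in Cy3. This contrast thus leans on the fitted effects of set, dye and dye by set.

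The smallest p among spots higher in male antennae belonged to spot 21831 (row 102, column 116). Its levels were 8.42, 8.74, 8.51 and 8.08 in male and 8.26, 7.98, 8.37 and 8.02 in female antennae, which overlap. The fitted difference was 0.42 ± 0.09 (SE; 95% interval 0.24 to 0.61), with an adjusted p of 0.0791 in limma (0.0159 to 1 over 34 other settings). It passed without antenna male replicate 4 (adjusted p of 0.0159 in limma) and without the variance trend (0.0482). Its partner of the pair, spot 4761 (row 23, column 31), was fitted at 0.51 ± 0.12 (SE), with an adjusted p of 0.124 in limma. Partners were chosen for closeness in values over the same 24 samples, so a like sex difference follows from that choice.

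Among spots lower in male antennae the smallest p belonged to spot 12196 (row 57, column 156). It had levels of 11.13, 11.61, 10.96 and 10.27 in male and 11.47, 11.53, 11.39 and 11.49 in female antennae. The female values lay close together, and 1 male value lay above them and 3 below. The fitted difference was -0.70 ± 0.16 (SE; 95% interval -1.05 to -0.36), at an adjusted limma p of 0.126, and it ran from -0.87 to -0.05 over 34 other settings.

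At the 134 spots, the precision bounds what could have been missed. The SE of the sex difference in antennae had a median of 0.18 over the 134 spots and a highest value of 0.47. Its 95% interval lay within 1 on either side of 0 at 123 spots, and within 0.5 at 59.

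**Figure D5:**
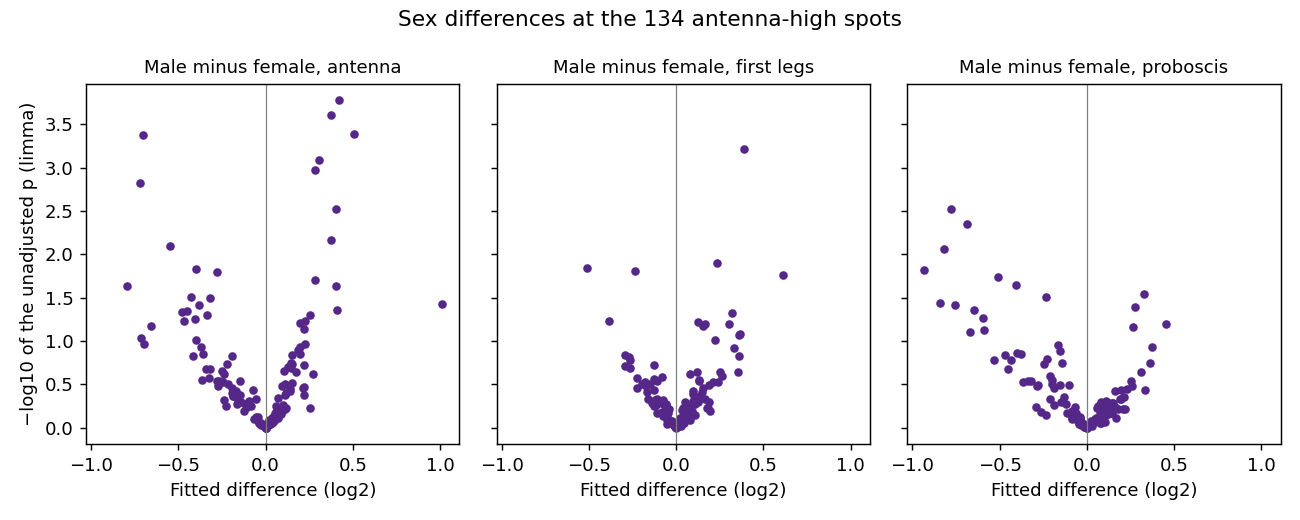
Fitted male minus female difference (log2) against −log10 of the unadjusted limma p at the 134 antenna-high spots, in antennae, first legs and proboscises. No point passed after adjustment over the 22575 spots. In proboscises, where sex coincided with the dye by set term, the 12 differences beyond 0.5 in size were all on the side lower in males. How many of all spots differed by as much was not counted.

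In first legs, limma called 0 of the 134 spots between the sexes, where 0.173% of all spots were called, 0.151% higher and 0.0221% lower in males. An unadjusted p under 0.05 was found at 6 of the 134, 4.48% beside 6.77% of all spots. Differences ran from -0.51 to 0.61. The smallest p belonged to spot 5888 (row 28, column 83), at 7.30, 7.59, 7.30 and 7.46 in male and 7.01, 7.15, 7.26 and 7.08 in female first legs, which did not overlap. Its difference was 0.39 ± 0.09 (SE; 95% interval 0.19 to 0.58), with an adjusted p of 0.170 in limma (0.049 to 1 over 34 other settings), and it passed without female first legs replicate 2.

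On the other side, spot 18964 (row 89, column 44) differed by -0.51 ± 0.19 (SE) in first legs. It stood at 8.33 ± 0.31 in male and 8.66 ± 0.66 in female first legs (SD, n = 4 each). It was among the 2 spots lower in males with an unadjusted limma p under 0.05, 1.49% of the 134 beside 3.42% of all spots. After adjustment it was not called (adjusted p of 0.562 in limma).

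In proboscises, limma called 0 of the 134 spots between the sexes, where 0.0133% of all spots were called, and 12 had an unadjusted p under 0.05, 8.96% beside 3.2% of all spots. Of the 12, 10 were lower in males, 7.46% of the 134 beside 1.76% of all spots at that threshold. Differences beyond 0.5 in size occurred at 12 spots, all lower in males, but how many of all spots differed by as much was not counted. The median difference was -0.009 at the 134 and 0.0035 at all spots. With 1 dye effect for all arrays, 7 of the 134 were called, all lower in males. That fit called 1219 spots on the array, about the same share of all spots. How many of the 1219 were lower in males was not counted, so the direction cannot be set against the array.

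The smallest p in proboscises belonged to spot 4535, at 8.88, 8.79, 8.78 and 8.11 in male and 9.06, 8.94, 9.09 and 9.88 in female proboscises. Every female value was above every male value, before any adjustment for dye and set. The fitted difference was -0.78 ± 0.23 (SE; 95% interval -1.26 to -0.30), with an adjusted p of 1 in limma (0.044 to 1 over 34 other settings). Spot 7802 had the smallest p among spots higher in males, with a difference of 0.33 ± 0.14 (SE), which turned to -0.23 with 1 dye effect for all arrays.

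The difference of the sex effect between antenna and the mean of the other tissues was tested as well. It includes the proboscis contrast and leans on the same dye by set effect. Limma called 0 of the 134 spots, where 0.00886% of all spots were called, and 16 had an unadjusted p under 0.05, 11.9% beside 5.27% of all spots. Spot 4761 had the smallest p, with a larger male minus female value in antennae by 0.63 ± 0.15 (SE; adjusted p of 0.427 in limma). Its levels were 8.51 ± 0.37 in antennae of males and 7.98 ± 0.24 in those of females (SD, n = 4 each). Spot 7802 led the other side, at -0.41 ± 0.13 (SE).

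Between RIL 89 and RIL 58, limma called 0 of the 134 spots, where 0% of all spots were called, and 5 had an unadjusted p under 0.05, 3.73% beside 6.22% of all spots. All 5 were lower in RIL 89, where 2.47% of all spots were at that threshold. Differences ran from -0.31 to 0.36. The smallest p in each direction belonged to spots 16685 (row 78, column 130) and 20635 (row 96, column 210), with RIL 89 minus RIL 58 differences of -0.28 ± 0.11 and 0.36 ± 0.18 (SE; adjusted p of 0.797 and 0.814 in limma). At all 134 spots the 95% interval lay within 1 on either side of 0.

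Of the 6 comparisons, only that between replicate numbers called any of the 134 spots under its first settings. In a fit added with earlier results known, replicates 3 and 4 were set against replicates 1 and 2 over all tissues in place of the RIL number. Limma called 2 of the 134, or 1.49%, where 0.913% of all spots were called and 0.421% were called higher. Both were higher in replicates 3 and 4. The labels do not say what the replicate numbers stand for, and in females replicates 3 and 4 are all RIL 89 and replicates 1 and 2 all RIL 58. With the RIL number kept in the model, both spots were still called (adjusted p of 0.00393 and 0.00699 in limma).

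At spot 11165 (row 52, column 200) replicates 3 and 4 exceeded replicates 1 and 2 by 1.40 ± 0.20 (SE; adjusted p of 0.00133 in limma, up to 0.00406 with 1 sample left out). Its antenna levels were 11.87 and 11.78 in male replicates 3 and 4, against 10.03 and 10.21 in male replicates 1 and 2. In female antennae they were 12.13 and 11.72 in replicates 3 and 4, against 10.80 and 9.34 in replicates 1 and 2. Within every one of the 6 groups, replicates 3 and 4 lay above replicates 1 and 2. Spot 11165 is among the spots that carried a quality mark on at least 1 array.

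At spot 150 (row 1, column 150) the excess in replicates 3 and 4 was 0.68 ± 0.11 (SE; adjusted p of 0.00541 in limma, up to 0.0125 with 1 sample left out). With 1 dye effect for all arrays it was not called (adjusted p of 0.0712 in limma). Its antenna levels were 9.69 and 8.52 in male and 9.48 and 9.65 in female replicates 3 and 4, against 8.73 and 8.96 in male and 8.44 and 8.53 in female replicates 1 and 2. Male antennae overlapped and female antennae did not. Its counterpart, spot 17217, which is not one of the 134, differed by 0.80 ± 0.12 (SE; adjusted p of 0.00246 in limma). Spot 17217 was chosen for closeness to spot 150 in the same 24 samples. A like difference follows from that choice and is no separate result.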

How the data were processed

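Each of the 24 samples was 1 dye channel, grouped by the tissue and sex in its title. The scanner files hold linear intensity values, the mean brightness of each spot and its local background, with no normalisation, and a quality score per spot, per the file headers. The deposited value table is on a natural log scale and matched the natural log of signal minus background to within 8.98e-08 where that was above 0. The sources used here do not give the quantification program.

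Levels are log2 of signal minus background (not below 0) plus 50, quantile normalised over the 24 samples. Tests used normexp background with an offset of 50, log2, quantile normalisation and a limma fit across all 22575 spots. The fit had 6 group means, RIL number, array set, dye and dye by set, and arrays, inferred from identical quality scores, as a random block (correlation 0.552, 14 residual degrees of freedom). Array sets were divided at the widest gap in channel correlation. Tests were two-sided. The script was tested on simulated data.

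The members, terms and rule for named spots were chosen with earlier results of these data known. Spots were named at most 2 per direction: by widest gap, antenna level, first legs minus proboscis difference, smallest p in each direction where none was called, and nearness to the limits; spots outside the rule and those of the replicate fit were added after their values were seen. Gene lists could not be used, since the files name no genes. Replicate numbers were not taken as pairs. Residuals of same-numbered male and female samples correlated above 0.1 in 3 of 12 pairs (-0.233 to 0.666). All 3 were antenna pairs (0.224 to 0.666), and the highest was replicate 2, whose samples were the channels of 1 array. Fits ran in R 4.3.3 (limma 3.58.1 with statmod 1.5.0) and the rest in Python 3.11.15 with numpy 2.4.6, pandas 2.3.3 and matplotlib 3.10.9.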

Additional observations from a re-analysis of the deposited data

Results flagged for a closer look

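In 120 groups of 4 samples, from 20 named spots in 6 groups each, 7 single values stood far from the other 3 of their group. Chance gives about 1 such group in 20, so this number is near what it gives.

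Male first legs replicate 1 was at 7.57 at spot 13930, against 6.79 to 6.86 in the other 3. Male antenna replicate 4 was at 9.20 at spot 17654, against 9.97 to 10.07. At spot 4535, male proboscis replicate 4 was at 8.11, against 8.78 to 8.88, and female proboscis replicate 4 at 9.88, against 8.94 to 9.09. At spot 21831, female first legs replicate 3 was at 7.43, against 7.19 to 7.22, and female proboscis replicate 3 at 7.44, against 7.33 to 7.34. Male proboscis replicate 2 was at 7.16 at spot 16685, against a highest other value of 7.04.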

How the results depend on the processing

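The number of antenna-high spots was 134 and ran from 130 to 161 with 1 sample left out. It was 79 with an offset of 200, 83 with each sample scaled to 1 median and 211 without antenna male replicate 4 and female replicate 2, sharing 78, 77 and 134 spots with the 134; the cause was not tested. Under the other 9 alternatives it ran from 90 to 181, with 108 for pairs counted once. The counts of called spots were 0 for the sexes in antennae, first legs and proboscises, for the difference of the sex effect and for the RIL numbers, and also 0 with the replicate number as a block, which changed no call. They became 1 in antennae without the variance trend, where the cause was not tested. In proboscises the count became 7 with 1 dye effect for all arrays, about the share called over all spots. That fit leaves out the dye by set term, with which sex coincided in proboscises. With 1 sample left out, the antenna count ran from 0 to 2, being 2 without antenna male replicate 2 and 1 without antenna male replicate 4, antenna female replicate 2, first legs male replicate 2 or first legs female replicate 1. The first legs count ran from 0 to 1, being 1 without first legs female replicate 2, and the other 3 counts were 0 throughout. For these fits, and for the fit without the variance trend, the shares called over all spots are not given here. The sex difference of spot 7802 in proboscises turned to -0.23 with 1 dye effect for all arrays, which does not separate sex from the dye by set effect there. The count of 2 between replicate numbers was 1 with 1 dye effect for all arrays, 0.746% of the 134 beside 0.173% of all spots. With 1 sample left out it ran from 2 to 4. It was 4 without first legs male replicate 3, first legs female replicate 3 or proboscis male replicate 4. The shares called over all spots with 1 sample left out are not given here either. In Cy5 antenna samples the signal minus background was larger than the local background itself in all 4 at 118 of the 134 spots, and in Cy3 at all 134.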
